A study of Rattus norvegicus and Mus musculus with 22 samples.

Results

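The cytotoxic granule genes described here are the perforin gene Prf1, the granzyme genes Gzma, Gzmb, Gzmbl2, Gzmk and Gzmm, and Nkg7, 7 genes chosen by symbol. All 7 were listed among the 22081 rows of the day 7 lung table and of the lung CD4 table, 6 in the day 56 lung table and 6 among the 25683 genes of the mouse table. The rat libraries came from lungs of rats with Sugen-hypoxia, a model that pairs a VEGF receptor inhibitor with low oxygen and produces pulmonary hypertension. IL6KO rats (labelled IL6-/-, without the cytokine interleukin 6) and wild-type (WT) rats gave 3 whole-lung libraries each at day 7 and 3 each at day 56, and 2 libraries each of CD4-positive cells taken from lung by magnetic sorting (MACS) at day 7. All rats, WT included, had Sugen-hypoxia, and the labels give no strain, age or deleted part of Il6. The mouse libraries were tdTomato-positive and tdTomato-negative CD4-positive spleen cells of 3 Ai14; SM22alpha-Cre mice, sorted by FACS. In these mice the SM22alpha promoter, known from smooth muscle, drives Cre, and a cell that has had Cre activity keeps the red tdTomato mark. No label names a treatment of the mice.

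Cytotoxic lymphocytes, chiefly natural killer (NK) cells and CD8 T cells, store perforin and granzymes in secretory granules and release them at the contact with a target cell. Perforin forms pores in the target's membrane through which granzymes, a family of serine proteases, enter. Granzyme A and granzyme B differ in the residues after which they cut, granzyme K cuts after basic residues like granzyme A, and granzyme M after long unbranched ones, while Nkg7 is a membrane protein of the granule that promotes its release in mouse cells. CD4 T cells usually carry little of this machinery, although some cytotoxic CD4 T cells exist.

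The letters upstream of these genes are shown as a description, and no link between them and the levels was tested. RefSeq (GRCr8) held a promoter window, 250 bases before to 50 after the start, for 6 of the 7 genes, all but Gzmbl2. Both strands were searched for the Runx letters TGTGGT, the ETS letters AGGAAG, the T-box letters AGGTGT and the STAT letters TTCNNNGAA. The Runx letters were in 6 of 6 windows, against 17.3% of all 33469 rat promoter windows of that length. The ETS letters were in 3 of 6, against 34.5% of all windows, the T-box letters in 1 of 6, against 13.6%, and the STAT letters in 2 of 6, against 8.87%. No base lay in more than 1 match. The windows below are for perforin (chr20:29788790-29789089, plus strand), Gzma (chr2:46485647-46485946, minus strand), Gzmk (chr2:46581966-46582265, minus strand) and Nkg7 (chr1:102981247-102981546, plus strand), each on the gene's own strand from 5′ to 3′. Capitals mark a match to any of the motifs on either strand, so the Runx match appears as ACCACA in each of these windows, and a match is a description of letters, not of a bound factor.
Prf1: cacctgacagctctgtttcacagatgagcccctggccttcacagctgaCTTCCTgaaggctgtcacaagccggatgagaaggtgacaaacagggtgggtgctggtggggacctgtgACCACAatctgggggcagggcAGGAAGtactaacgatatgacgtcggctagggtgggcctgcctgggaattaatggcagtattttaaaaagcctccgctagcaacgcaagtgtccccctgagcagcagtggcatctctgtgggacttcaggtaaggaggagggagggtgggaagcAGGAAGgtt
Gzma: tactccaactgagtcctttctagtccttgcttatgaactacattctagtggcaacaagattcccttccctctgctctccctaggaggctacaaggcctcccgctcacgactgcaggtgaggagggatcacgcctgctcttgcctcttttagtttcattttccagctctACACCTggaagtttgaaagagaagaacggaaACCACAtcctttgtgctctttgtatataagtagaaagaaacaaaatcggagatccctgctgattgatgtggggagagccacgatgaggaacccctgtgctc
Gzmk: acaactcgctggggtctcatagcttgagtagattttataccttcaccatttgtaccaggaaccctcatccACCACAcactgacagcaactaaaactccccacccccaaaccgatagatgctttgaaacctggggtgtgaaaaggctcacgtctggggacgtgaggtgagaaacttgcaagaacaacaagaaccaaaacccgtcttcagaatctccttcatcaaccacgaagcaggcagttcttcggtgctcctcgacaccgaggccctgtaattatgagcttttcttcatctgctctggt
Nkg7: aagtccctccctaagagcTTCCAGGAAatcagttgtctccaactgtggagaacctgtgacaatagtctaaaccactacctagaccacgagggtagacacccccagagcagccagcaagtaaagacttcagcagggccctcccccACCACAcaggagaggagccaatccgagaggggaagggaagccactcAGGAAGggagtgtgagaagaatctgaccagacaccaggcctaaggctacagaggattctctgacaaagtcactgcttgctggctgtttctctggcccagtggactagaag

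Levels are given in CPM, counts scaled to the library's total, and since CPM is not scaled by gene length it is compared between libraries, not between genes. Total counts ran from 14415060 to 23590070 in whole lung, from 11477533 to 12930732 in lung CD4 isolates and from 8737138 to 12560401 in spleen. Here "called" means an edgeR quasi-likelihood p under 0.05 after Benjamini-Hochberg correction, for which every tested gene of the comparison counted. No label says that the rat libraries of a group came from separate animals, so p-values measure the spread between these libraries. Il6 itself had 8, 5 and 2 counts in IL6KO lungs and 5, 11 and 6 in WT lungs at day 7, and 0, 2 and 3 counts in IL6KO lungs and 6, 6 and 5 in WT lungs at day 56. In CD4 isolates it had 8 and 17 counts in IL6KO and 48 and 20 in WT, and the difference was not called (log2 fold change -1.41). Counts this low check the genotype labels only weakly. In bulk libraries, fewer cells of a type and less RNA per cell cannot be told apart. Where groups are said to overlap or to stand apart, the share of all genes that stood apart was not counted. With 3 libraries per group, or 2 in isolates, such separation only describes the values and says little by itself.

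The first comparison asks how the lack of IL-6 changed granule genes in the whole lung at day 7. Of the 7 genes, 6 were higher in IL6KO lungs and 0 were lower, where 0.933% of the 14368 genes tested were called higher and 1.16% lower. The median log2 fold change of the 7 genes was 1.38, against 0.003 over all genes tested. The call was not made for Gzmb alone.

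The pore-forming gene Prf1 had 63.7, 58.4 and 50.8 CPM in IL6KO lungs, against 16.9, 25.4 and 23.9 CPM in WT lungs. Every IL6KO lung stood above every WT lung. The log2 fold change was 1.38 (SE 0.15, edgeR adjusted p = 0.00349). Among the granzymes, Gzma, a protease that cuts after basic residues, had 19.0, 16.02 and 14.5 CPM in IL6KO lungs and 3.73, 5.60 and 5.60 CPM in WT lungs. These groups were also apart, with a log2 fold change of 1.72 (SE 0.18, edgeR adjusted p = 0.00228). Gzmk, its neighbour on rat chromosome 2, had 20.3, 22.9 and 16.01 CPM in IL6KO lungs and 4.996, 8.48 and 8.58 CPM in WT lungs. It differed by a log2 fold change of 1.41 (SE 0.21, edgeR adjusted p = 0.0148), again with no overlap.

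Gzmm, the granzyme that cuts after long unbranched residues, had 17.3, 16.1 and 13.7 CPM in IL6KO lungs, against 6.06, 9.67 and 6.22 CPM in WT lungs. The groups did not overlap and the log2 fold change was 1.08 (SE 0.19, edgeR adjusted p = 0.0242). Nkg7, which aids granule release, had 17.3, 18.0 and 16.1 CPM in IL6KO lungs and 4.93, 7.97 and 10.5 CPM in WT lungs. Here WT replicate 3 came closest to the IL6KO lungs without reaching them, and the log2 fold change was 1.13 (SE 0.22, edgeR adjusted p = 0.0382).

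The granzyme B-like genes showed the widest spread among the granule genes. Gzmbl2, a granzyme B-like gene, had 12.1, 8.68 and 8.13 CPM in IL6KO lungs and 1.07, 2.33 and 3.98 CPM in WT lungs, and the genotypes did not overlap. Its log2 fold change was 1.96 (SE 0.36, edgeR adjusted p = 0.0382). Gzmb, listed in the same table, had 1.97, 3.73 and 3.32 CPM in IL6KO lungs and 0.60, 1.61 and 2.49 CPM in WT lungs. The genotypes overlapped, and its log2 fold change of 0.92 (SE 0.42) had an edgeR adjusted p of 0.365. Gzmb and its close copies share sequence, so how the counting divided reads between them is uncertain. With all libraries the call was made for 6 genes, but only Prf1 and Gzma were called when IL6KO replicate 1 or replicate 2 was left out. Gzmm was not called without WT replicate 1 or 3 either (adjusted p of 0.0727 and 0.0675), nor Gzmbl2 and Nkg7 without WT replicate 2 or IL6KO replicate 3 (adjusted p from 0.0702 to 0.168). Gzmbl2 also lost its call with no filter on low counts (adjusted p = 0.0627) and with the replicate number as a block (adjusted p = 0.13).

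**Figure D1:**
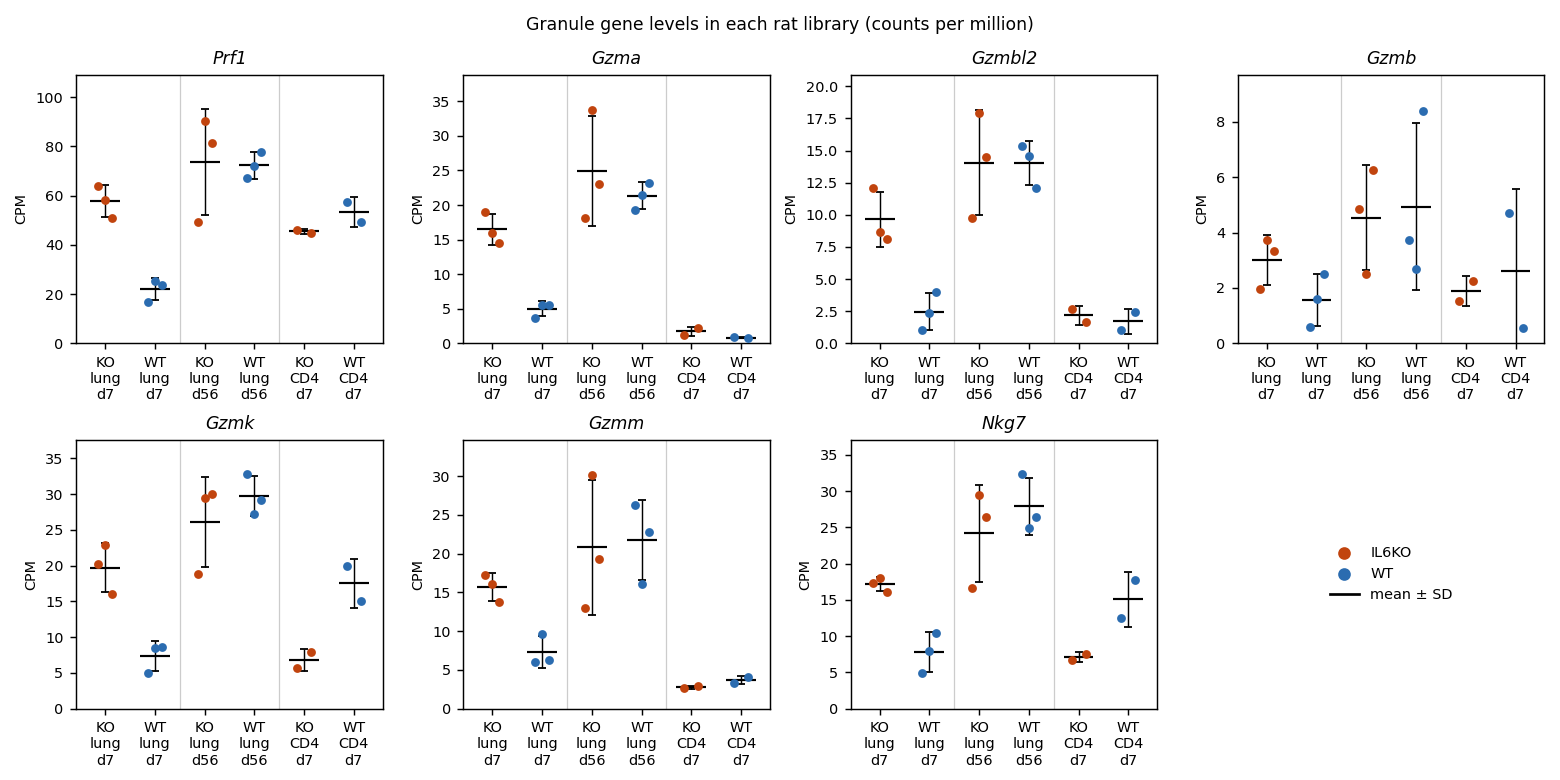
CPM (linear axis from 0) of each granule gene in each rat library, IL6KO in orange and WT in blue, with the group mean and SD as black bars. Day 56 points of Gzmb and Gzmbl2 are those of the same table rows as at day 7. In day 7 lung Prf1 sits between 50.8 and 63.7 CPM in IL6KO and between 16.9 and 25.4 CPM in WT, while the day 56 groups overlap for every gene.

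The other genes of the pathway were counted by list. Of 15 tested genes of granule maturation and release (such as the granzyme-activating protease Ctsc, whose log2 fold change was -0.28 with adjusted p = 0.0604), edgeR called 0 at day 7, 4 had an unadjusted p under 0.05 and DESeq2 called 1, with a median log2 fold change of -0.09. Of 14 regulators of cytotoxic cells, 3 were higher in IL6KO and 0 lower: Tbx21, the T-box transcription factor of cytotoxic and Th1 cells (log2 fold change 1.06, SE 0.13), Il2rb, a receptor chain for IL-2 and IL-15 (1.02, SE 0.15), and Il12rb2, an IL-12 receptor chain (1.27, SE 0.26). Of 5 tested effector ligands and cytokines, 2 were higher, the death ligand Tnfsf10 (1.18, SE 0.10) and the chemokine Ccl5 (1.24, SE 0.13). Of 4 granzyme inhibitors, 1 was higher, Serpinb6b (0.84, SE 0.18, adjusted p = 0.0497).

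Markers of the cells that could carry the granules moved unequally in the same lungs. Of 5 tested NK cell markers, 2 were higher in IL6KO, the NK receptors Ncr1 (log2 fold change 1.09, SE 0.18) and Klrd1 (1.21, SE 0.21), and 0 were lower. The summed NK list ran from 31.9 to 45.7 CPM in IL6KO lungs and from 22.2 to 29.0 CPM in WT lungs. Of 9 pan T cell markers, edgeR called 0 (2 at an unadjusted p under 0.05, 0 by DESeq2, median log2 fold change -0.05), and their sum ran from 44.8 to 57.9 CPM in IL6KO lungs and from 35.8 to 54.5 CPM in WT lungs. Of 2 CD8 markers, edgeR called 0 (1 at an unadjusted p under 0.05, and 1 by DESeq2), and Cd8a had 16.6, 16.6 and 11.9 CPM in IL6KO lungs and 8.99, 11.4 and 9.08 CPM in WT lungs (log2 fold change 0.60, adjusted p = 0.111). Other cell markers also stood apart between the genotypes. Of 6 mast cell and basophil markers 2 were lower in IL6KO, Cpa3 (log2 fold change -1.67, SE 0.25) and Tpsb2 (-1.50, SE 0.22), and the list's sum ran from 14.01 to 20.8 CPM in IL6KO lungs and from 33.2 to 54.0 CPM in WT lungs. Of 5 B cell markers edgeR called 0 (3 at an unadjusted p under 0.05, 1 by DESeq2, median log2 fold change 0.38), with sums of 33.7 to 44.1 CPM in IL6KO lungs and 26.4 to 29.5 CPM in WT lungs. None of these markers was at 0 over a whole group, and the part of cell numbers in the granule gene result was not tested.

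Ratios within a library do not depend on its scaling and are given as descriptions. The 5 granule genes with the same name and row in all rat tables (Prf1, Gzma, Gzmk, Gzmm and Nkg7) summed to 965%, 943% and 1092% of the CD3 subunit counts in IL6KO lungs at day 7. In WT lungs they summed to 372%, 354% and 400%. Against the 7 listed NK markers the same sum was 302%, 288% and 349% in IL6KO lungs and 165%, 197% and 233% in WT lungs. Both ratios were apart between the genotypes. The NK list also holds markers that were not called, so its sum need not follow the called ones. Ncr1, a called NK marker, was 13.07% to 17.17% of the Prf1 count in IL6KO lungs and 17.19% to 18.90% in WT lungs, nearly touching. Gzma was 29.8%, 27.4% and 28.5% of the Prf1 count in IL6KO lungs and 22.0%, 22.0% and 23.4% in WT lungs, whereas Gzmk relative to Prf1 overlapped, at 31.5% to 39.3% in IL6KO and 29.5% to 35.9% in WT.

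At day 56 the same comparison gave no call among the granule genes. Of the 6 listed genes, edgeR called 0, 0 had an unadjusted p under 0.05, and DESeq2 called 0, where edgeR called 0.0138% of the 14475 genes tested. Prf1 had 49.4, 90.4 and 81.5 CPM in IL6KO lungs and 67.0, 72.2 and 77.7 CPM in WT lungs. Its log2 fold change was 0.01 with an SE of 0.20 (adjusted p = 0.992). Gzma had 18.1, 33.7 and 23.1 CPM in IL6KO lungs and 19.4, 21.4 and 23.2 CPM in WT lungs (log2 fold change 0.20, SE 0.21, adjusted p = 0.681). The genotypes overlapped for both genes, and IL6KO replicate 1 was the lowest of the 3 IL6KO lungs for each of the 6 listed genes.

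Gzmk had 18.8, 29.5 and 30.0 CPM in IL6KO lungs and 32.8, 27.2 and 29.2 CPM in WT lungs at day 56 (log2 fold change -0.21, SE 0.17). Gzmm had 13.0, 30.1 and 19.3 CPM in IL6KO lungs and 26.3, 16.1 and 22.8 CPM in WT lungs (-0.08, SE 0.30). Nkg7 had 16.6, 29.4 and 26.4 CPM in IL6KO lungs and 32.3, 24.9 and 26.4 CPM in WT lungs (-0.23, SE 0.20). Each pair of groups overlapped, and the adjusted p over the 6 genes ran from 0.613 to 0.992. Per CD3 count, in contrast to CPM, the sum of the 5 genes was 1276%, 1417% and 1639% in IL6KO lungs and 738%, 904% and 958% in WT lungs, with no overlap. Over the 7 NK markers that the day 7 table lists too, it was 315%, 296% and 334% in IL6KO lungs and 313%, 365% and 255% in WT lungs, with overlap. Of 8 tested pan T cell markers edgeR called 0 at day 56 (3 at an unadjusted p under 0.05, 1 by DESeq2, median log2 fold change -0.61), and Cd3e had 4.22, 6.10 and 5.70 CPM in IL6KO lungs and 12.3, 9.62 and 8.88 CPM in WT lungs.

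**Figure D2:**
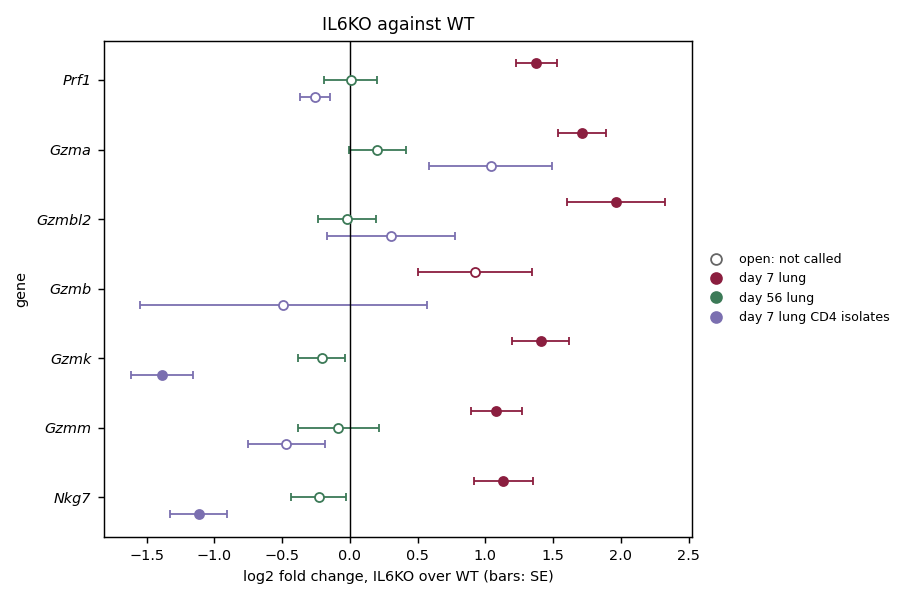
Log2 fold change of IL6KO over WT (horizontal axis) with its SE for each granule gene in whole lung at either day and in CD4 isolates of day 7; filled points were called. Day 7 lung points lie between 0.92 and 1.96, day 56 points between -0.23 and 0.20, and the filled CD4 points are Gzmk at -1.39 and Nkg7 at -1.12. The day 56 value of the row named Gzmbl2 at day 7 is drawn as Gzmbl2, and none is drawn for the Gzmb row.

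The comparison of day 56 with day 7 within each genotype needs the names in the tables. The day 7 and day 56 tables hold 22081 rows each, of which 19704 carry the same name at the same position and 2377 another name. The row named Gzmb at day 56 is the row named Gzmbl2 at day 7, and the row named Gzmb at day 7 is named LOC102553861 at day 56. Joined by symbol, 57 symbols exceeded 10 CPM in all 6 lungs of 1 day and lay under 1 CPM in all 6 of the other, and joined by row position 0 did. The values of Gzmb and Gzmbl2 between days are therefore given by row, a choice made after seeing the data, and the symbol-joined value of Gzmb is not read as a difference. The other 5 genes have the same name and row in both tables.

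In WT lungs all of these 5 genes were higher at day 56 than at day 7. By symbol edgeR called 6 of 6 tested genes higher, Gzmb with its unlike rows among them, where 6.72% of the 13865 genes tested were called higher. By row position it called 6 of 7 higher, where 5.4% of 14691 rows were called higher. Prf1 rose by a log2 fold change of 1.68 (SE 0.20, edgeR adjusted p = 0.000121), with 67.0 to 77.7 CPM at day 56 and 16.9 to 25.4 CPM at day 7. Gzma rose by 2.06 (SE 0.22, edgeR adjusted p = 4.13e-05), with 19.4 to 23.2 CPM at day 56 and 3.73 to 5.60 CPM at day 7. For neither gene did the days overlap.

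Gzmk rose by a log2 fold change of 1.97 (SE 0.22), Gzmm by 1.52 (SE 0.28) and Nkg7 by 1.81 (SE 0.24) in WT lungs. The row of Gzmbl2 rose by 2.45 (SE 0.35, adjusted p = 0.000943), with 15.4, 14.6 and 12.1 CPM at day 56 and 1.07, 2.33 and 3.98 CPM at day 7. The row named Gzmb at day 7 had 3.74, 2.70 and 8.39 CPM at day 56 and 0.60, 1.61 and 2.49 CPM at day 7, and its difference of 1.57 (SE 0.54) was not called (adjusted p = 0.0783). It was the 1 of the 7 rows without a call, although its days did not overlap.

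In IL6KO lungs, edgeR called 0 of the 7 rows between the days, 1 had an unadjusted p under 0.05 and DESeq2 called 0, where edgeR called 6.45% of all rows in either direction and 2.25% higher. Joined by symbol the single call was Gzmb, which sets unlike rows against each other, where 3.4% of genes were called higher. Prf1 had 49.4 to 90.4 CPM at day 56 and 50.8 to 63.7 CPM at day 7 in IL6KO lungs (log2 fold change 0.31, SE 0.19, adjusted p = 0.391). Gzma had 18.1 to 33.7 CPM at day 56 and 14.5 to 19.0 CPM at day 7 (0.55, SE 0.20, adjusted p = 0.125). Both genes overlapped between the days, and Gzma was called without IL6KO day 56 replicate 1 (0.72, adjusted p = 0.0483). Gzmk differed by 0.36, Gzmm by 0.36 and Nkg7 by 0.45 on the log2 scale, none of them called.

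**Figure D3:**
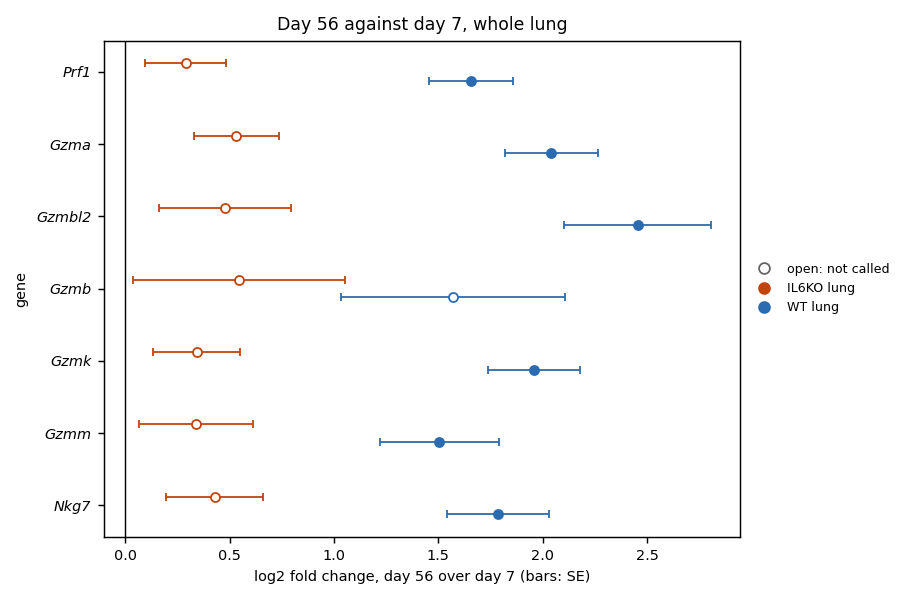
Log2 fold change of day 56 over day 7 (horizontal axis) with its SE for each granule gene in IL6KO and in WT whole lung, joined by table row; filled points were called. WT values lie between 1.51 and 2.45, with Gzmb open at 1.57, and all IL6KO points, from 0.29 to 0.55, are open.

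The change of the genotype difference between the days was tested directly as an interaction over the 12 lungs. By symbol the interaction was negative for each of the 6 genes tested. Gzmb with its unlike rows is among them and its value is not read as a difference. A negative value means that the IL6KO difference was lower at day 56. However, edgeR called 0 of 13865 genes, a share of 0%, and 1043 of them had an unadjusted p under 0.05. Among the granule genes 5 of 6 had an unadjusted p under 0.05, and DESeq2 called 4 of 6 (Prf1, Gzma, Gzmk and Nkg7). By row position edgeR called 0 of 7, 6 had an unadjusted p under 0.05 and DESeq2 called 5. The values were -1.37 for Prf1 (SE 0.27, edgeR adjusted p = 0.298), -1.51 for Gzma (SE 0.29, edgeR adjusted p = 0.255) and -1.61 for Gzmk (SE 0.30, edgeR adjusted p = 0.248). For Gzmm the value was -1.17 and for Nkg7 -1.36. Without WT day 56 replicate 3, edgeR called Prf1, Gzma and Gzmk, with adjusted p values of 0.0375, 0.028 and 0.0196, and 597 genes in all. The comparisons of genotypes at day 7 and of days in WT share the WT day 7 lungs, so their values are side by side and not independent. Day and table also coincide, so a technical difference between the tables and a difference between the days cannot be told apart.

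The other lists between days were counted by row position. Of 8 further granzyme genes on a list, 1 was tested. It was higher at day 56 in WT lungs (log2 fold change 3.72), also by DESeq2. In IL6KO lungs edgeR did not call it (1.01), with 0 at an unadjusted p under 0.05 and 0 by DESeq2. Its genotype by day interaction was -2.70, with an unadjusted edgeR p under 0.05 but no call by edgeR or DESeq2. In WT lungs 8 of 14 regulators of cytotoxic cells were higher at day 56 and 0 lower, among them Il2rb (log2 fold change 1.53) and Il12rb2 (1.47). In IL6KO lungs edgeR called 0 of these 14, with 2 at an unadjusted p under 0.05 and 0 by DESeq2. Of 6 NK cell markers 4 were higher in WT lungs and 1 in IL6KO lungs. Of 2 CD8 markers 2 were higher in WT lungs (median log2 fold change 1.11), while in IL6KO lungs edgeR called 0 (0.20), with 0 at an unadjusted p under 0.05 and 0 by DESeq2. Of 15 genes of granule maturation and release 0 were higher and 1 lower in WT lungs, while in IL6KO lungs edgeR called 0, with 2 at an unadjusted p under 0.05 and 1 by DESeq2. Of 5 B cell markers 4 were higher in WT lungs, while in IL6KO lungs edgeR called 0, with 2 at an unadjusted p under 0.05 and 0 by DESeq2, so that the change between days in WT was not limited to cytotoxic genes. In the genotype by day interaction, also by row position, edgeR called 0 genes in each of these lists. Of the 14 regulators 4 had an unadjusted p under 0.05 and DESeq2 called 1. Of the 6 NK cell markers these counts were 2 and 1, and of the 15 granule maturation genes 1 and 0. Of the 2 CD8 markers they were 2 and 0, and of the 5 B cell markers 4 and 0. Calls in WT beside fewer in IL6KO are thus not a called difference between the genotypes.

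Granule genes that varied alike were matched to other genes over the 12 lungs by the root mean square (RMS) difference of centred log2 CPM, among 12538 genes. Prf1 was most like Il2rb, Ccl5 and Ncr1, with RMS differences of 0.18, 0.21 and 0.22, where the median over all candidates was 0.757. Nkg7 was most like Il2rb, Ccl5 and Ncr1, Gzmk like Ncr1, Ccl5 and Il2rb, and Gzmm like Klrd1, Ncr1 and Il2rb, all within 0.214. Gzma was most like Il12rb2, Ccl5 and Klre1, at 0.323 to 0.336. Gzmb was nearest to Dll4, Rps10l1 and Mospd1, at 0.36 to 0.58. Its symbol joins unlike rows between the days, so that match is not read. Among the granule genes the closest pair was Gzmk and Nkg7 (0.15). These 12 lungs share their groups and depths, so the likeness is a description.

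Lung CD4 isolates at day 7 gave a different picture. Of the 7 genes, 2 were lower in IL6KO isolates and 0 higher, where 2.91% of the 12243 genes tested were called lower and 3.5% higher. Gzmk had 5.71 and 7.93 CPM in IL6KO isolates, against 19.97 and 15.1 CPM in WT isolates. Its log2 fold change was -1.39 (SE 0.23, edgeR adjusted p = 0.0177). Nkg7 had 6.64 and 7.58 CPM in IL6KO isolates and 12.4 and 17.8 CPM in WT isolates, a log2 fold change of -1.12 (SE 0.21, edgeR adjusted p = 0.0272). Neither gene overlapped between the genotypes, but with either WT isolate left out neither was called (adjusted p from 0.0602 to 0.154).

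Prf1 had 46.2 and 44.8 CPM in IL6KO isolates and 57.6 and 49.2 CPM in WT isolates. The groups stood apart by little, and the log2 fold change of -0.26 (SE 0.11) was not called (edgeR adjusted p = 0.209). Gzma was near the low end, with 1.26 and 2.18 CPM in IL6KO isolates (15 and 25 counts) and 0.857 and 0.773 CPM in WT isolates (10 counts each). The genotypes were apart for Gzma, but the difference of 1.04 on the log2 scale (SE 0.46) was not called (adjusted p = 0.222). Gzmm had 2.61 and 2.88 CPM in IL6KO isolates and 3.34 and 4.10 CPM in WT isolates (-0.47, SE 0.28). Gzmb had 1.51 and 2.27 CPM in IL6KO isolates and 4.71 and 0.541 CPM in WT isolates. Gzmbl2 had 2.69 and 1.66 CPM in IL6KO isolates and 1.03 and 2.40 CPM in WT isolates. Both overlapped between the genotypes, and the 2 WT isolates differed from each other by more than the genotype means did.

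The labelled cell type was checked against its markers. Cd3e, a subunit of the T cell receptor complex, had 497 and 449 CPM in IL6KO isolates and 618 and 613 CPM in WT isolates, and Cd4 had 782 and 741 CPM in IL6KO isolates and 598 and 642 CPM in WT isolates. The macrophage growth factor receptor gene Csf1r was also abundant, at 1541 and 1532 CPM in IL6KO isolates and 899 and 870 CPM in WT isolates, against 281 to 301 CPM in IL6KO lung and 278 to 284 CPM in WT lung at day 7. Rat macrophages are known to carry CD4 too.

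Several markers of other cells moved with genotype in these isolates. The CD8 gene Cd8a had 13.4 and 10.98 CPM in IL6KO isolates and 128 and 96.1 CPM in WT isolates (log2 fold change -3.23, SE 0.19, adjusted p = 0.00327). Of 2 CD8 markers 2 were lower in IL6KO, and their sum ran from 14.03 to 17.4 CPM in IL6KO isolates and from 107 to 138 CPM in WT isolates. Of 6 tested NK cell markers 1 was higher in IL6KO, with sums of 188 to 311 CPM in IL6KO isolates and 183 to 187 CPM in WT isolates. Of 9 tested macrophage markers 3 were higher, with sums of 9877 to 13954 CPM in IL6KO isolates and 8884 to 8953 CPM in WT isolates, and Marco was at 0 in WT isolates. Of 5 neutrophil markers edgeR called 0 (1 at an unadjusted p under 0.05, 1 by DESeq2, median log2 fold change -1.50). Their sums ran from 391 to 494 CPM in IL6KO isolates and from 549 to 1211 CPM in WT isolates. Of 5 lung epithelium markers 3 were lower, and of 9 pan T cell markers 3 were lower, Cd3e among them (-0.41, SE 0.08). The part of these cells in the lower Gzmk and Nkg7 was not tested.

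Set against Cd8a, the order of the genotypes was the other way round. Cd8a itself averaged 12.2 CPM in IL6KO isolates and 112 CPM in WT isolates. Any gene that fell less than Cd8a takes this order, so it does not measure granule transcripts per CD8 cell. The other CD8 gene, Cd8b, fell less, averaging 3.54 CPM in IL6KO and 10.5 CPM in WT isolates, and ratios to it were not computed. Gzmk was 42.8% and 72.2% of the Cd8a count in IL6KO isolates and 15.6% and 15.7% in WT isolates, and Nkg7 was 49.7% and 69.0% in IL6KO isolates and 9.71% and 18.5% in WT isolates. Set against CD3 subunits, the sum of the 5 genes was 6.88% and 7.98% in IL6KO isolates and 8.32% and 7.90% in WT isolates, with overlap. Of the regulators of cytotoxic cells 2 of 14 were lower in IL6KO isolates, the interleukin 18 receptor genes Il18rap (-0.90, SE 0.08) and Il18r1 (-0.51, SE 0.09). Of 15 genes of granule maturation and release edgeR called 0, with 1 at an unadjusted p under 0.05 and 0 by DESeq2.

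The isolates were then compared with whole lung at day 7, where T cell markers give the scale of the sorting. In a fit of the 10 day 7 libraries, Cd3e was higher in isolates by a log2 fold change of 6.20 in IL6KO and 6.64 in WT, and Cd4 by 4.96 in IL6KO and 5.15 in WT. The granule genes did not follow. In IL6KO, 0 of 7 were higher and 5 lower in isolates than in lung, where 43.2% of the 14772 genes tested were called lower and 36.4% higher. In WT, 3 were higher and 2 lower, where 37.7% of genes were called higher and 43.6% lower. These shares are high, so a call in this comparison says little by itself.

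Gzma was lower in isolates in both genotypes, by -3.07 (SE 0.27) in IL6KO, with 1.26 and 2.18 CPM in isolates and 14.5 to 19.0 CPM in lung. In WT it was lower by -2.31 (SE 0.33), with 0.857 and 0.773 CPM in isolates and 3.73 to 5.60 CPM in lung. Gzmm was also lower in isolates in both, by -2.32 (SE 0.25) in IL6KO and -0.68 (SE 0.24) in WT. Of 6 NK cell markers, 4 were higher in isolates and 1 lower in IL6KO (median log2 fold change 2.15), and 5 were higher and 1 lower in WT (2.58). The lower one was the NK receptor gene Ncr1 (-2.42 in IL6KO and -1.59 in WT), while Klrd1 was higher in both (1.62 in IL6KO and 2.39 in WT). The call for Gzmm in WT was lost without WT isolate 1, where its value was -0.53. In IL6KO, Gzmb was not called (-0.47, SE 0.77). Gzmb, not called in WT with all libraries (1.03, SE 0.76), was called higher without WT isolate 2 (1.93, adjusted p = 0.00858).

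Prf1 had 46.2 and 44.8 CPM in IL6KO isolates and 50.8 to 63.7 CPM in IL6KO lung (-0.15, SE 0.16, adjusted p = 0.414). In WT it had 57.6 and 49.2 CPM in isolates and 16.9 to 25.4 CPM in lung, and was higher in isolates (1.58, SE 0.16, edgeR adjusted p = 1.97e-06). Gzmk was lower in IL6KO isolates (-1.34, SE 0.26) and higher in WT isolates (1.55, SE 0.24), each against lung of its genotype. Nkg7 was lower in IL6KO isolates (-1.08, SE 0.26) and higher in WT isolates (1.26, SE 0.25). Cd8a, beside these, had a difference of -0.10 in IL6KO (not called) and was higher by 3.81 in WT. Gzmbl2 was lower in IL6KO isolates (-1.95, SE 0.48) and not called in WT (-0.20, SE 0.53).

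**Figure D4:**
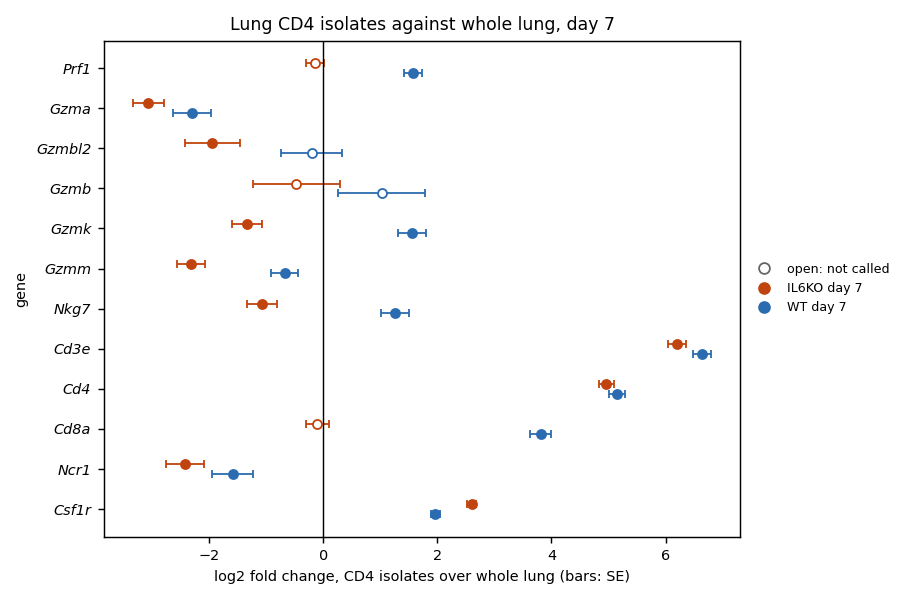
Log2 fold change of day 7 lung CD4 isolates over whole lung (horizontal axis) with its SE, for the granule genes and 5 cell type markers in IL6KO and in WT; filled points were called. Cd3e and Cd4 lie between 4.96 and 6.64, the granule genes between -3.07 and 1.58, and Cd8a at -0.10 in IL6KO and 3.81 in WT.

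The difference between these genotype effects was tested as an interaction, the IL6KO difference in isolates minus that in lung. It was negative and called for 4 of 7 genes, where 4.55% of 14772 genes were called lower and 1.88% higher. The values were -2.89 for Gzmk (SE 0.36, edgeR adjusted p = 0.00136), -2.33 for Nkg7 (SE 0.36, adjusted p = 0.0041), -1.72 for Prf1 (SE 0.23, adjusted p = 0.00171) and -1.64 for Gzmm (SE 0.35, adjusted p = 0.0177). The Gzmm call was lost without IL6KO lung replicate 2 or without any 1 of the 4 isolates (adjusted p from 0.0523 to 0.0708). Gzma (-0.76, adjusted p = 0.389), Gzmb (-1.50) and Gzmbl2 (-1.75) were not called. Cd8a had -3.91 (SE 0.27) in the same test and its part in these values was not tested. Scaled by library totals alone, the median of all genes moved by 0.113 in this test and the share of calls that were higher was 48.0%, against 29.2% with TMM scaling, and the same number of granule genes, 4, was called.

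Along Prf1, the composition of granule transcripts differed between the sample kinds. Gzma was 2.73% and 4.86% of the Prf1 count in IL6KO isolates, against 27.4% to 29.8% in IL6KO lung at day 7. It was 1.49% and 1.57% in WT isolates, against 22.0% to 23.4% in WT lung. Gzmm was 5.64% and 6.42% of Prf1 in IL6KO isolates and 27.0% to 27.5% in IL6KO lung, and 5.80% and 8.33% in WT isolates and 26.0% to 38.0% in WT lung. In both genotypes isolates and lung were apart for both ratios. Gzmk, in contrast, was 34.7% and 30.7% of Prf1 in WT isolates, within reach of the 29.5% to 35.9% of WT lung, but 12.4% and 17.7% in IL6KO isolates, against 31.5% to 39.3% in IL6KO lung. These ratios were not tested.

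In mouse splenic CD4 cells, tdTomato-positive and tdTomato-negative fractions were compared for the 6 listed genes. Per GENCODE on GRCm38, Prf1 lies on chromosome 10 (61297833 to 61304680, plus strand), Gzma on chromosome 13 (113093825 to 113100981, minus strand) and Nkg7 on chromosome 7 (43437073 to 43438249, plus strand). Gzmk lies near Gzma (113171608 to 113225908, minus strand), Gzmb on chromosome 14 (56258838 to 56262260, minus strand) and Gzmm on chromosome 10 (79689020 to 79695261, plus strand), and counts cover whole genes. As a check of the labelled cell type, Cd3e stood at 406 to 472 CPM in positive and 337 to 482 CPM in negative fractions, and Cd4 at 490 to 531 CPM in positive and 510 to 539 CPM in negative fractions.

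Of the 5 genes tested, edgeR called 0, 0 had an unadjusted p under 0.05, and DESeq2 called 0, where edgeR called 0.00902% of the 11083 genes tested. Gzmk did not pass the filter on low counts. The fit had no term for the mouse, so its SE and p values ignore that both fractions came from the same mice. With the mouse as a block no granule gene call changed, while Gzmb went from -0.18 to 0.34 on the log2 scale. Prf1 had 49.4, 54.6 and 34.8 CPM in the positive fractions of mice 1, 2 and 3, and 35.9, 38.9 and 39.6 CPM in their negative fractions (log2 fold change 0.25, SE 0.18, adjusted p = 0.998). Nkg7 had 79.3, 240.1 and 90.4 CPM in positive and 82.9, 143 and 78.3 CPM in negative fractions (0.40, SE 0.52, adjusted p = 0.998). Mouse 2 had the highest Nkg7 in both fractions, and the fractions overlapped for both genes. Gzma had 0.666, 9.61 and 1.47 CPM in positive and 2.42, 3.29 and 1.11 CPM in negative fractions (0.73, SE 0.84), again highest in mouse 2.

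Gzmb, Gzmk and Gzmm were scarce in the spleen. Gzmb had 9 to 23 counts in positive and 2 to 47 in negative fractions, Gzmk 4 to 9 in positive and 0 to 28 in negative, and Gzmm 16 to 43 in positive and 10 to 24 in negative. Scaled by exon length, Nkg7 averaged 149 ± 98.3 CPM per kilobase in positive and 111 ± 39.3 in negative fractions, and Prf1 17.9 ± 3.96 in positive and 14.8 ± 0.765 in negative fractions (SD, n = 3 each). Each other gene stood under 4 CPM per kilobase on average in both fractions. Macrophage markers summed to 80.2 to 105 CPM in positive fractions and 41.0 to 59.6 CPM in negative ones, with 0 of 10 called by edgeR (1 at an unadjusted p under 0.05, 0 by DESeq2), and NK markers to 42.4 to 54.4 CPM in positive and 38.2 to 55.9 CPM in negative fractions.

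**Figure D5:**
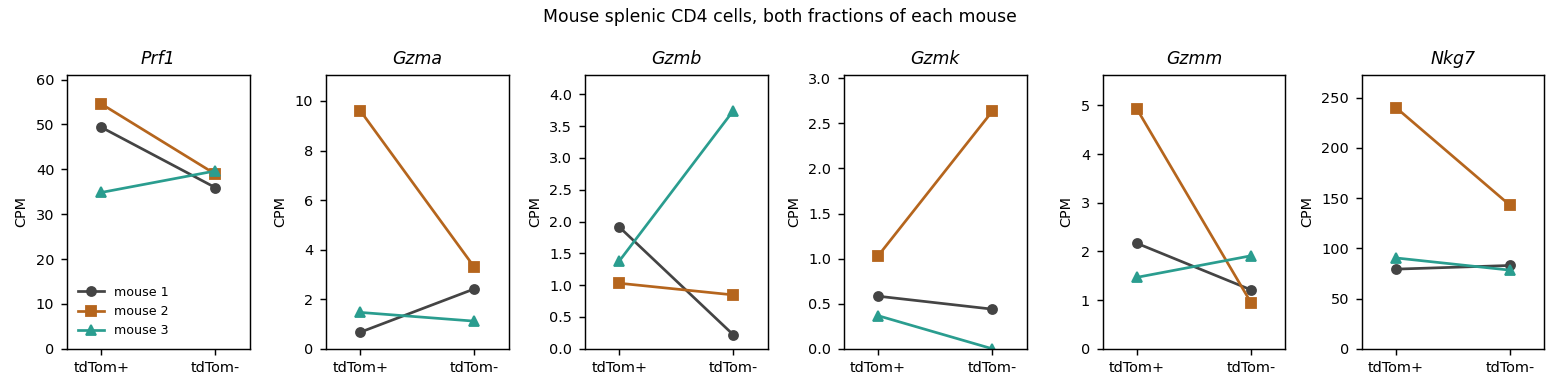
CPM (linear axes from 0) of the 6 listed granule genes in the tdTomato-positive and tdTomato-negative splenic CD4 fractions, a line joining the fractions of each mouse. Nkg7 is highest in mouse 2 in both fractions, at 240.1 CPM in the positive and 143 CPM in the negative one, and the lines run in no common direction for any gene.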

How the data were processed

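Gene counts of 22 RNA-seq libraries were analysed, 16 of rat and 6 of mouse. The authors deposited raw counts, whole numbers with 1 column per library, and replicates were not pooled. Per the submitters' processing notes the build was GRCm38, a mouse build, also for rat samples; no source used here names the aligner or counter. Every sample column was matched to its labels by name.

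Counts were filtered with filterByExpr, normalised by TMM, and tested in R 4.3.3 with the robust quasi-likelihood test of edgeR 4.0.16 (glmQLFit, then glmQLFTest). All p-values of a comparison were adjusted together by Benjamini-Hochberg, with calls under 0.05. SE is the log2 fold change divided by the root of the F statistic. Genotypes were compared within a table, and so were splenic fractions, with no term for the mouse. Days were compared over all 12 lungs joined by symbol, and isolates with whole lung over the 10 day 7 rat libraries. The fit was also run on simulated counts, drawn as independent libraries with the fitted spread, for the first comparison of each fit only. That run does not check the interactions or the join between tables, and its outcome is not reported here. Replicate libraries of a group differed by more than sampling noise (chi-square per degree of freedom from 8.36 to 38.1). A count of 0 is bounded by 3 counts, at most 0.343 CPM, for counting error only. The labels tie splenic fractions of 1 number to 1 mouse, and deviations from the group means correlated at 0.03, 0.11 and 0.11 across genes.

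All 7 genes and Il6 were looked up in every comparison. So were 15 lists, marker lists included, of which up to 4 members by smallest p are named. Not every list or value is described for every comparison, and the CD4 T cell and endothelium lists are not described. The genes and lists were chosen with earlier results of these data known. Alternatives were DESeq2 1.42.0, RLE size factors, no filter, the replicate block, library totals alone and leaving out each library. The join by row position was added after seeing the data. Sequences are from RefSeq (GRCr8), mouse positions from GENCODE (GRCm38).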

Additional observations from a re-analysis of the deposited data

Results flagged for a closer look

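4 granule genes had a genotype difference in lung CD4 isolates that differed from the genotype difference in whole lung at day 7, by the test of the difference itself. On the log2 scale the difference of differences was -1.72 for Prf1, -2.89 for Gzmk, -1.64 for Gzmm and -2.33 for Nkg7. The Gzmm call was the least stable. It was lost without IL6KO lung replicate 2 (edgeR adjusted p = 0.0523) and in the other fits named above. In whole lung edgeR called each of the 4 higher in IL6KO, where 0.933% of genes were called higher. In isolates it called Gzmk and Nkg7 lower, where 2.91% of genes were called lower. Prf1 (edgeR adjusted p = 0.209) and Gzmm (edgeR adjusted p = 0.37) were not called in isolates. The 4 genes were picked by the interaction on these same values, so these comparisons are not separate evidence. Cd8a differed in the same test by -3.91, and its part in these values was not tested. No group here had the 4 or more libraries needed to look for single libraries that stand apart.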

How the results depend on the processing

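The counts of granule genes called, by setting, were as follows. Leaving out each library in turn gave 2 to 5 calls in day 7 lung (6 with all libraries), 0 to 2 in day 7 CD4 isolates (2 with all), 1 to 2 for the days in IL6KO lung (1 with all) and 0 to 3 for the genotype by day interaction (0 with all). DESeq2 called 4 in that interaction, and joining the tables by row position left 0 for the days in IL6KO lung. Where a WT or IL6KO group of isolates was left with 1 library, that library was assumed to vary like the others.

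Reversals of sign were limited to values without a call. With the replicate block, Prf1 at day 56 was -0.031 between genotypes and Gzmb in spleen 0.34. Over the left-out libraries, the genotype difference at day 56 ran from -0.15 to 0.21 for Prf1, -0.058 to 0.37 for Gzma, -0.22 to 0.17 for the row named Gzmb there (Gzmbl2 at day 7) and -0.43 to 0.15 for Gzmm. In CD4 isolates it ran from -1.36 to 1.77 for Gzmb and -0.15 to 1.03 for Gzmbl2. In spleen the fraction difference ran from -1.10 to 1.25 for Gzma, -0.67 to 1.38 for Gzmb and -0.27 to 0.71 for Nkg7. Between WT isolates and lung it ran from -1.21 to 1.93 for Gzmb and -0.90 to 0.28 for Gzmbl2, and the Gzmb interaction with sample kind from -2.38 to 0.77. The cause was not tested.

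The labels do not say whether rat libraries of 1 number share an animal. Same-numbered deviations correlated at 0.06, 0.07 and 0.25 in day 7 lung, where only number 3 matched its own number best, at -0.15, -0.07 and -0.03 in day 56 lung and at -0.007 in isolates. Between isolates and lung of day 7 they correlated at 0.03 and -0.05 in IL6KO and at -0.003 and -0.004 in WT, and the block changed no granule gene call there. The block left 5 granule genes called in day 7 lung and 2 in isolates, and changed no call in spleen. Over all genes, calls in day 7 lung were 551 by DESeq2, 543 with the block and 94 to 372 over left-out libraries, against 300. At day 56 they were 178 by DESeq2, 7 without the filter, 0 with the block and 1 to 1268 over left-out libraries, against 2. In spleen they were 2 by DESeq2, 3 with the block and 0 to 1 over left-out libraries, against 1. In isolates left-out libraries gave 76 to 970, against 784, and in the interaction with sample kind 341 to 1111, against 949. For the days, left-out libraries gave 1235 to 3656 in WT, against 2048, and 704 to 1666 in IL6KO, against 1153. For the genotype by day interaction they gave 0 to 597 and DESeq2 48, against 0. Library totals alone moved the median of all genes by -0.31 (WT) and -0.19 (IL6KO) between isolates and lung and changed no count of granule genes called.

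2 libraries per genotype limit the isolates, and low counts limit Gzmb, Gzmbl2 and the spleen granzymes.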
